A study of Caenorhabditis elegans with 2 samples.

Results

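The left piRNA cluster of chromosome IV of the nematode Caenorhabditis elegans was described here as a window of ChIP-seq regions of SNPC-4. Its members were all regions of the pooled candidate list (genome build ce11, the same assembly as WBcel235) on chromosome IV whose summit, the position of highest signal in a region, lay from 4500000 to 7000000. There were 728 such regions among 30000 in the list. They were set against 3149 regions of the rest of chromosome IV, outside this window and outside the right piRNA cluster toward the other end of the chromosome, which held 1136. The study had 1 group of 2 ChIP-seq libraries, biological replicates 1 and 2, from whole embryos of mixed stage and pooled sex. The strain, OP179, carries unc-119(ed3) III and the transgene insertion wgIs179 with eGFP-tagged snpc-4. The labels give snpc-4 as the antibody's target and do not say whether it binds the tag or the protein. A control is named in the labels and went into the authors' lists, and no control library was analysed here.

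SNPC-4 is the DNA-binding subunit of SNAPc, the complex that binds upstream of small nuclear RNA genes and recruits RNA polymerase to them. In C. elegans it is also known to occupy the piRNA clusters of chromosome IV in the germline, together with PRDE-1, TOFU-4 and TOFU-5. Each piRNA gene there, also called a 21U-RNA gene, has its own short promoter with an upstream motif, CTGTTTCA in its core, and its product is bound by the Argonaute protein PRG-1. Spliced leader (SL) RNAs, which are trans-spliced to the start of messenger RNAs, are transcribed from SNAPc promoters as well.

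The candidate lists hold peaks and background regions together by design, 30000 in each list, so a region in a list is not in itself a site of binding. Regions were therefore ranked by signal, the authors' value for a region over a control, from rank 1 (strongest) to 30000. The strongest regions of the whole genome were set apart, as many as the thresholded list of build ce10 holds peaks; they are called the strongest set. That ce10 list held 32 peaks in the window and 100 in the rest of chromosome IV. How deeply the libraries were sequenced is unknown. Ranges in parentheses after a share are 95% Wilson intervals, which cover counting error over regions or genes and not the spread between animals. With 2 libraries of 1 group there is no test between conditions, so each result was read beside its value in the replicate 1 list and the replicate 2 list. In whole embryos, binding in fewer cells and weaker binding in each cell cannot be told apart. The lists hold no expression values, so the stage label could not be checked against markers.

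The strongest regions of the window stood upstream of snoRNA, snRNA and SL RNA genes. The 80 bases before the annotated start of 7 of these genes are given here because their summits carry the highest signals of the window, with those of the SmY RNA gene smy-7 for contrast. The sequences are from the WBcel235 assembly, read 5′ to 3′ on the gene's strand, with the run TGTCG in capitals where it occurs. They cover chrIV:4880851-4880930 (minus strand) for T08B6.64, chrIV:6117877-6117956 (minus) for M03D4.78, chrIV:4930874-4930953 (plus) for Y9C9A.111, chrIV:5317369-5317448 (minus) for sls-2.17, chrIV:4864736-4864815 (minus) for Y17G9A.85, chrIV:4885650-4885729 (minus) for T08B6.62, chrIV:5063532-5063611 (minus) for sls-2.13 and chrIV:6460765-6460844 (minus) for smy-7.
T08B6.64: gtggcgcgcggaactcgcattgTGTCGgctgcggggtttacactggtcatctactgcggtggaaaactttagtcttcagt
M03D4.78: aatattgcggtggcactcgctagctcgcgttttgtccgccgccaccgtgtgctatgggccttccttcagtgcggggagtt
Y9C9A.111: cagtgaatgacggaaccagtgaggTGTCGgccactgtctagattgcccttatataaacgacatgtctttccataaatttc
sls-2.17: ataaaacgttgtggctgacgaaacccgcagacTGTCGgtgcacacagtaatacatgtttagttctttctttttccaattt
Y17G9A.85: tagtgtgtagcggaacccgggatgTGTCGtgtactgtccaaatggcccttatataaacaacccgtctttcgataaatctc
T08B6.62: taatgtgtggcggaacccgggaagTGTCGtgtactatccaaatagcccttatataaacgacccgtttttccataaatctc
sls-2.13: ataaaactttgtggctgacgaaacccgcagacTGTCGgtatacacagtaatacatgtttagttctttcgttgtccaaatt
smy-7: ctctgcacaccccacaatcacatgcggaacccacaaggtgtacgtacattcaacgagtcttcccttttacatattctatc

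The run TGTCG was chosen after these sequences had been read, so its counts are a description. It occurred within 80 bases upstream of 3 of 3 SL RNA genes of the window, each time 48 bases before the start, and of 4 of 5 snRNA genes, each time 56 bases before the start. Among snoRNA genes 4 of 10 had it, and 0 of 9 tRNA genes and 0 of 9 miRNA genes did. For comparison, 46 of the 2816 piRNA genes of the window had it (1.63%), and 3.99% of all stretches of that length in the window, read from every base on both strands. M03D4.78, smy-7 and the snoRNA gene C17H12.36, which lack these letters, nonetheless had regions in the strongest set. So did the tRNA genes Y4C6B.t1 and B0350.t1, which lack them as well.

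For piRNA genes the 60 bases before the gene and the 21 bases of the gene itself are given, with the gene and the motif CTGTTTCA in capitals. The first 3 are the piRNA genes nearest to the 3 strongest summits with any within 200 bp, and 21ur-419 and 21ur-7908 are genes with the motif near weaker summits. They cover chrIV:6140592-6140672 (minus strand) for 21ur-13565, chrIV:5265097-5265177 (minus) for 21ur-7377, chrIV:5967029-5967109 (plus) for 21ur-5229, chrIV:5178803-5178883 (minus) for 21ur-419 and chrIV:6641578-6641658 (plus) for 21ur-7908.
21ur-13565: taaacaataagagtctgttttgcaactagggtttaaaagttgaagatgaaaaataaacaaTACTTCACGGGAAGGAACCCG
21ur-7377: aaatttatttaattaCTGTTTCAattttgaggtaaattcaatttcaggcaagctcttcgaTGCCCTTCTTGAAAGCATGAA
21ur-5229: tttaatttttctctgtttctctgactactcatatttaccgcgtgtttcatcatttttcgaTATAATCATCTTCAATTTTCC
21ur-419: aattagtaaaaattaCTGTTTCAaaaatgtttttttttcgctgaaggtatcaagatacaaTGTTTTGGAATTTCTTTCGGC
21ur-7908: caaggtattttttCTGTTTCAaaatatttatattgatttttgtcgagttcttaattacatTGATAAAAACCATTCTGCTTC

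Of these, 21ur-7377 and 21ur-419 have the motif 45 bases before their start and 21ur-7908 has it 47 bases before, whereas 21ur-13565 and 21ur-5229 do not have these letters. Of the 2816 annotated piRNA genes of the window, 1112 (39.5%) had the exact motif 30 to 60 bases before their start on their own strand, and 2691 (95.6%) began with T.

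Candidate regions were about as dense in the window as elsewhere on the chromosome, although piRNA genes were far denser. The window held 1126 piRNA genes per Mb, against 45.2 per Mb in the rest of chromosome IV. It held 291 regions per Mb, against 279 per Mb in the rest, a ratio of 1.04. In the replicate 1 list the densities were 270.0 per Mb in the window and 281 per Mb in the rest, a ratio of 0.961, and in the replicate 2 list they were 300.0 per Mb and 282 per Mb, a ratio of 1.06. The libraries thus fell on either side of 1. In the right piRNA cluster, where piRNA genes are denser still at 3078 per Mb, there were 307 regions per Mb.

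The signals of the window spread like those of the rest. They were taken from the candidate list, since all 213 peaks of the thresholded ce11 list are on chromosome I and that list says nothing of chromosome IV. Pooled signal ran from 6.66 to 870 in the window with a median of 9.59, and from 6.66 to 1823 in the rest with a median of 9.63. Median rank was 15128 in the window, against 15001 in the rest. In the replicate 1 list the median ranks were 14730 in the window and 15540.5 in the rest, and in the replicate 2 list 15671 in the window and 14874 in the rest, so the order was opposite in the 2 libraries. Of the 728 regions, 33 (4.53%, 3.25 to 6.30%) were in the strongest set, against 102 of 3149 (3.24%, 2.68 to 3.92%) in the rest and 3.66% of all candidate regions. The shares were 4.89% in the window and 3.34% in the rest for replicate 1, and 4.27% and 2.85% for replicate 2. At this limit the window was thus above the rest in both libraries, while the intervals of window and rest overlapped. The right piRNA cluster had 4.58% (3.51 to 5.95%). Among the strongest 5000 regions were 120 of the 728 members, against 513 of 3149 in the rest. The counts were 113 of 675 and 493 of 3174 in replicate 1, and 121 of 750 and 518 of 3190 in replicate 2. At that wider limit the order was opposite in the 2 libraries.

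Just inside the lower bound the region chrIV:4505597-4505956, beside gbb-2, had a signal of 7.95, and just outside it chrIV:4488712-4489071, beside trx-3, had 9.39. Just inside the upper bound chrIV:6992317-6992676, 7 bp from 21ur-7804, had 8.77, and just outside it chrIV:7002049-7002408, beside C25A8.5, had 6.76.

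**Figure D1:**
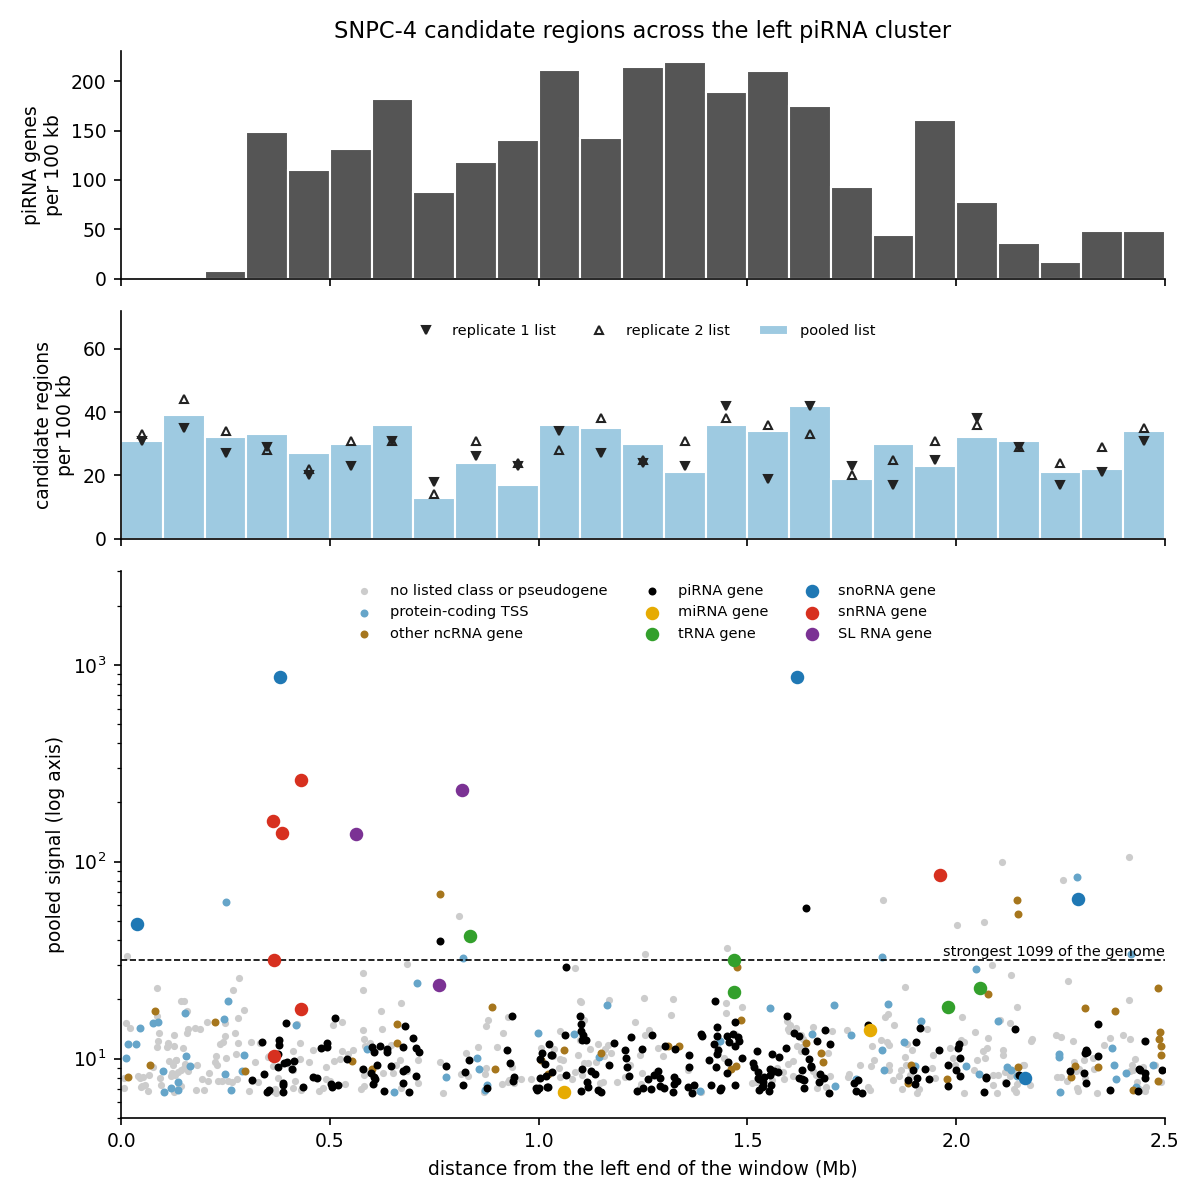
Top, annotated piRNA genes per 100 kb against the distance from the left end of the window in Mb; middle, candidate regions per 100 kb in the pooled list (bars) and in each replicate list (triangles); bottom, pooled signal of each of the 728 regions on a log axis, coloured by the class of gene within 200 bp of the summit. The 7 regions with the highest signals, 138 to 870, stand at snoRNA, snRNA or SL RNA genes, and the number of regions per 100 kb, 13 to 42, does not follow the piRNA genes.

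Within the window the number of candidate regions did not follow the piRNA genes either. In 100 kb bins the piRNA gene count ran from 0 to 220. The bin with the most, 5.8 to 5.9 Mb, had 220 piRNA genes and 21 regions in the pooled list, and the bin with the fewest, 4.5 to 4.6 Mb, had 0 piRNA genes and 31 regions. Over the 25 bins, which share libraries and differ in base composition, Spearman's rho between piRNA genes and regions was 0.15 in the pooled list, 0.08 in replicate 1 and -0.0017 in replicate 2. In the pooled list, rho of piRNA genes with the number of regions in the strongest set was -0.32, and with the median signal -0.20. The GC content of the bins fell with piRNA gene number (rho -0.42), and its part in these values was not tested. The 22 bins with at least 10 piRNA genes had 285 regions per Mb, and the other 3 bins had 340.0.

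The small RNA genes of the window other than piRNA genes were few, and the strongest regions stood at them. The annotation places 36 SL RNA, snRNA, snoRNA, tRNA and miRNA genes in the window; 19 had a summit within 200 bp, and 13 had one in the strongest set. All 13 of those summits lay upstream of the gene's start, by 23 to 65 bp with a median of 49 bp. The 7 strongest members in the window were all of these classes. Each had close ranks in the replicates, at most 14 ranks apart. Strong regions at these classes were not peculiar to the window. Of regions near snRNA genes, 12 of 14 in the rest and 5 of 7 in the window were in the strongest set. For SL RNA genes the counts were 2 of 2 in the rest and 2 of 3 in the window. For snoRNA genes they were 6 of 23 and 4 of 5, and for tRNA genes 4 of 16 and 2 of 5.

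Among snoRNA genes, whose products guide modification of other RNAs, T08B6.64 (chrIV:4880738-4880850, minus strand, intergenic) had the strongest region of the window, with a signal of 424 in replicate 1, 446 in replicate 2 and 870 in the pooled list, where it ranked 34. M03D4.78 (chrIV:6117751-6117876, minus strand, intergenic) followed at rank 35, with 425 in replicate 1, 440 in replicate 2 and 868 pooled. Their summits lay 63 and 60 bp before the starts shown above. Lower came C17H12.36 (pooled signal 64.7; 39.5 in replicate 1 and 25.4 in replicate 2) and ZK185.9, which lies in an intron of ZK185.2 on the other strand (48.5 pooled; 19.99 in replicate 1 and 33.4 in replicate 2). Another, Y73B6A.14, had a region of signal 7.94 at rank 22296 that was matched only in replicate 2, and the remaining 5 snoRNA genes had none. Of those 5, C06E7.95, carries TGTCG 48 bases before its start.

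All 5 snRNA genes of the window had a region in the strongest set. Y9C9A.111 (chrIV:4930954-4931055, plus strand), in an intron of Y9C9A.8, had 127 in replicate 1, 134 in replicate 2 and 260.0 pooled (rank 78). Y17G9A.85 (chrIV:4864635-4864735, minus strand) had 79.3 in replicate 1, 85.3 in replicate 2 and 161 pooled (rank 115). T08B6.62 (chrIV:4885549-4885649, minus strand), in an intron of the chemoreceptor gene str-166 on the other strand, had 69.3 in replicate 1, 69.4 in replicate 2 and 140.1 pooled (rank 129). Y17G9A.90 (chrIV:4866811-4866912, plus strand) was far lower, with 15.4 in replicate 1, 16.0 in replicate 2 and 31.7 pooled (rank 1080). These 4 genes are 99.0 to 100% identical, and exact copies of each occur at 17 places in the genome, so the division of signal among copies is uncertain. The SmY RNA gene smy-7, single-copy and of a family associated with trans-splicing in nematodes, had 48.4 in replicate 1, 33.01 in replicate 2 and 85.7 pooled (rank 212).

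The 3 SL RNA genes are of the SL2 type, whose leaders are spliced to downstream genes of operons. Signals at sls-2.17 were 117 in replicate 1, 109 in replicate 2 and 231 pooled (rank 86), and at sls-2.13 they were 65.7 in replicate 1, 73.2 in replicate 2 and 138 pooled (rank 130). The remaining gene, sls-2.12, had 10.6 in replicate 1, 10.4 in replicate 2 and 23.8 pooled (rank 1816), with its summit inside the gene. The 3 genes are 90.0 to 96.4% identical and share the run TGTCG at the same distance.

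Of 9 tRNA genes, 4 had a region, led by Y4C6B.t1, a tRNA gene in an intron of Y4C6B.3, with 24.2 in replicate 1, 21.1 in replicate 2 and 42.0 pooled (rank 629). B0350.t1 came next with 18.6 in replicate 1, 13.3 in replicate 2 and 31.7 pooled (rank 1078), and its exact sequence occurs at 25 places in the genome. Of 9 miRNA genes 2 had a region, mir-8201 at rank 5834 (8.76 in replicate 1, 6.55 in replicate 2, 13.9 pooled) and mir-228 at rank 29354, and neither was among the strongest.

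**Figure D2:**
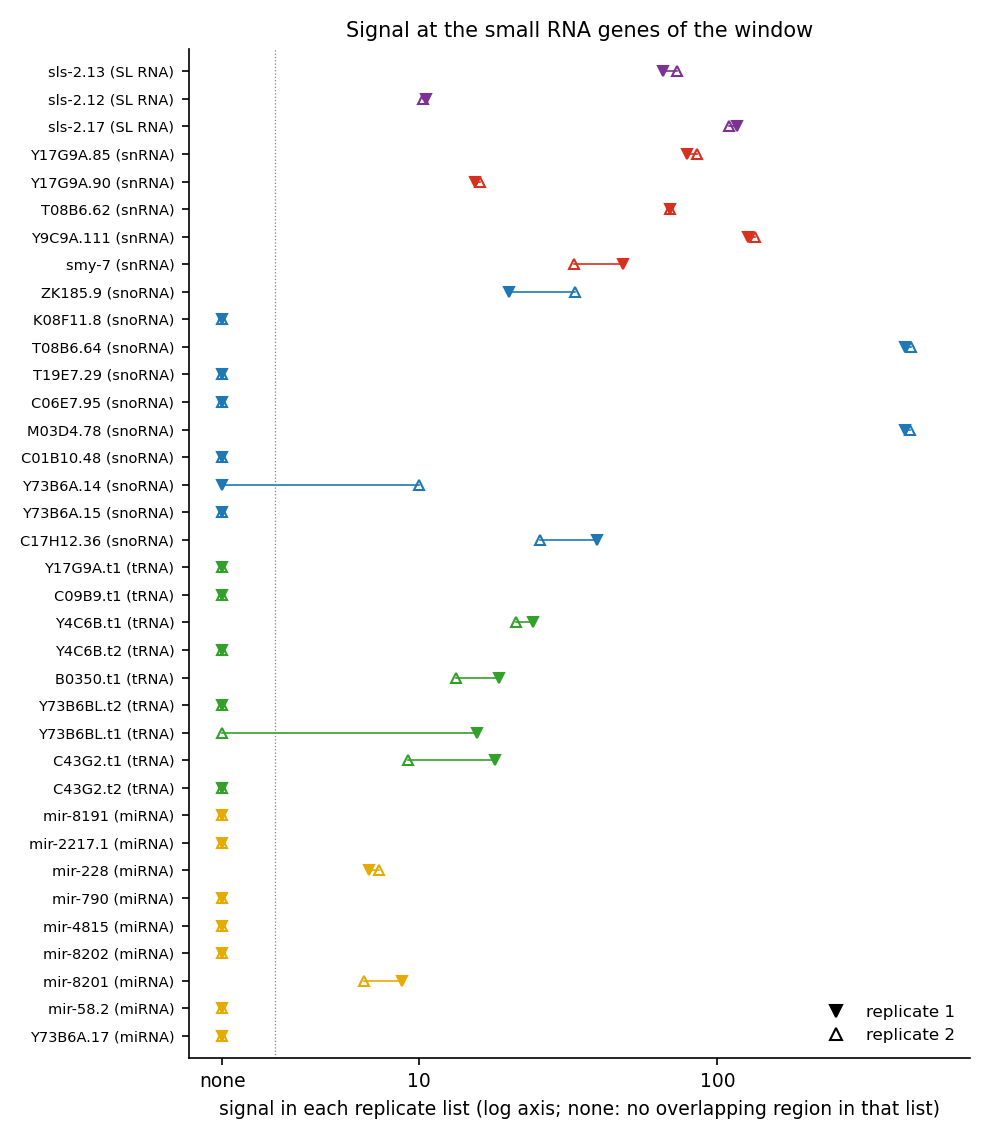
Signal on a log axis in the replicate 1 list (filled triangles) and the replicate 2 list (open triangles) at each of the 36 small RNA genes of the window other than piRNA genes; genes at "none" had no overlapping region in that list. T08B6.64 and M03D4.78 stand highest at 424 to 446 in both libraries, all snRNA and SL RNA genes have a region, and 17 genes have none.

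Shares of regions near these classes exceeded the shares of bases near them, in the window and in the rest alike. For snRNA genes 0.962% of the window's regions (0.467 to 1.97%) lay within 200 bp, against 0.0995% of its bases, and in the rest 0.445% of regions against 0.0982% of bases. SL RNA genes had 0.412% of the window's regions against 0.0612% of bases, and in the rest 0.0635% against 0.00901%. For snoRNA genes the values were 0.687% of regions against 0.227% of bases in the window and 0.730% against 0.186% in the rest, and for tRNA genes 0.687% against 0.171% in the window and 0.508% against 0.125% in the rest.

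Within 200 bp, regions lay near piRNA genes about as often as bases of the window did. Of the 728 regions, 232 (31.9%, 28.6 to 35.3%) had a summit within 200 bp of a piRNA gene, against 30.1% of the window's bases. In replicate 1 the share was 27.1% (23.9 to 30.6%) and in replicate 2 it was 33.3% (30.1 to 36.8%), and both intervals held the share of bases. The share of bases was also met within 100 bp, at 18.5% of pooled regions against 18.4% of bases, although replicate 1 lay below it at 14.8% (12.3 to 17.7%). Within 500 bp the pooled share, 52.7% (49.1 to 56.3%), and that of replicate 2, 53.1% (49.5 to 56.6%), lay above the 47.8% of bases, and the interval of replicate 1 held it at 49.6% (45.9 to 53.4%). In the rest of chromosome IV 1.94% of regions (1.51 to 2.48%) lay near a piRNA gene, against 1.57% of bases, and in the right cluster 56.6% of regions against 57.5% of bases. Seen from the genes, 357 of the 2816 piRNA genes of the window (12.7%, 11.5 to 13.96%) had a summit within 200 bp. The count was 287 in replicate 1 and 376 in replicate 2. A summit of the strongest set, which had 33 regions in the window, lay within that distance of 5 of the 2816 (0.178%, 0.0759 to 0.415%). Gene shares for evenly spread summits were not computed, so these shares show neither an excess nor a lack.

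The regions near piRNA genes were the weaker ones of the window. Their median pooled signal was 8.85, against 9.90 for the 496 regions farther away, a ratio of 0.894, and their median rank was 17985.5, against 14045.5. The ratio was 0.923 in replicate 1 and 0.955 in replicate 2. Of the 232 regions near piRNA genes 4 (1.72%, 0.672 to 4.35%) were in the strongest set, against 29 of 496 (5.85%, 4.10 to 8.27%) farther away. In replicate 1 the counts were 0 of 183 near (interval up to 2.06%) and 33 of 492 away, and in replicate 2 they were 2 of 250 near and 30 of 500 away. In the rest of chromosome IV the ratio of signals was 1.01, and in the right cluster it was 0.869. The difference between window and rest was not tested, since regions from the same libraries are not replicates.

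By rank, the share near piRNA genes was lowest among the strong regions. Of the 120 members with ranks 1 to 5000, 12.5% (7.72 to 19.6%) lay near a piRNA gene, against 35.7% (31.98 to 39.6%) of the 608 with lower ranks. Replicate 1 gave 14.2% (8.91 to 21.8%) of its strongest 5000 against 29.7% (26.1 to 33.6%) of the others, and replicate 2 gave 21.5% (15.1 to 29.6%) against 35.6% (31.97 to 39.4%). The intervals of strong and weak regions did not overlap in any of the 3 lists, of which the pooled one is made from the same 2 libraries. With the strongest set left out, ranks 1100 to 5000 were set against ranks 5001 to 15000. Replicate 1 had 16 of 80 (12.7 to 30.05%) against 27.8% (22.4 to 33.9%), with overlapping intervals. Those of replicate 2 also overlapped, at 26.97% (18.8 to 37.0%) against 35.02% (29.2 to 41.3%). The pooled ones did not, at 12.6% (7.21 to 21.2%) against 33.3% (27.7 to 39.5%). Among the weakest regions, those past rank 15000, 37.2% (32.4 to 42.3%) lay near a piRNA gene in the pooled list, 31.02% (26.3 to 36.2%) in replicate 1 and 36.0% (31.4 to 40.8%) in replicate 2. Set against the 30.1% of bases, the pooled and replicate 2 intervals lay above it and that of replicate 1 held it. In the rest of chromosome IV the shares were 1.75% for ranks 1 to 5000 and 1.97% for the others.

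**Figure D3:**
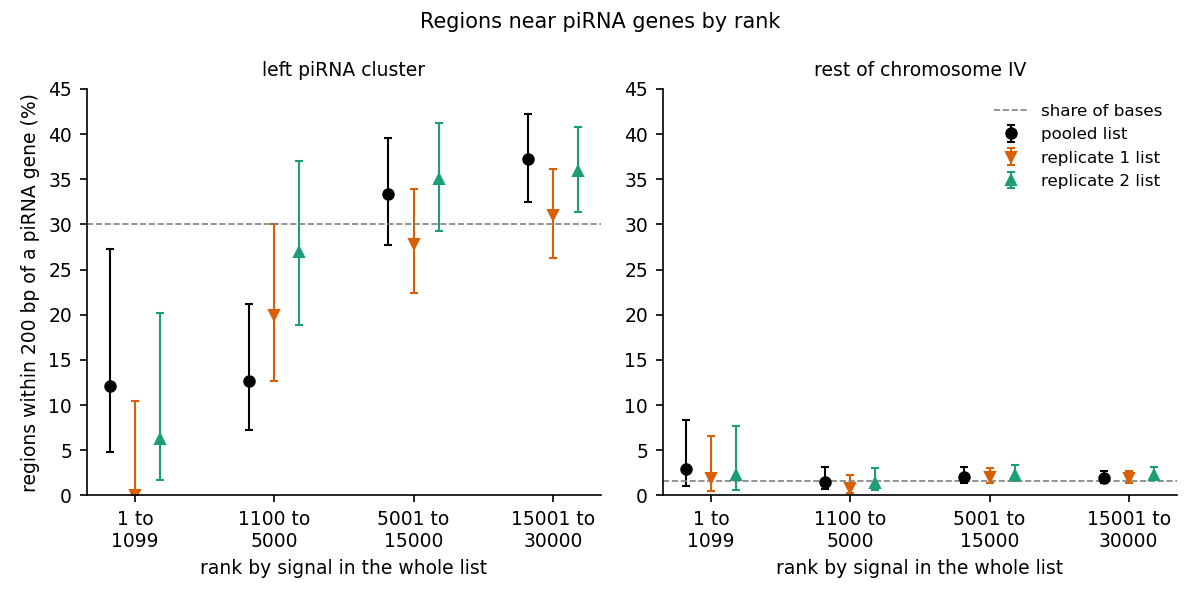
Percent of regions with a summit within 200 bp of a piRNA gene, by rank in the pooled list and in each replicate list, with 95% Wilson intervals, for the left cluster (left) and the rest of chromosome IV (right); the dashed lines mark the share of bases within that distance, 30.1% and 1.57%. In the left cluster the shares of the leftmost group, the strongest set, are 12.1%, 0% and 6.25%, all below the line.

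Base composition moved with this pattern. The median GC content of the stretch within 100 bp of the summit was 31.3% for regions near piRNA genes, against 35.8% for those farther away. It was 44.8% for the members in the strongest set, with a range of 33.8 to 58.2%, and 34.3% for the other members. Across the 728 regions GC content and signal had a Spearman's rho of 0.31, and across the rest of chromosome IV 0.21. Among members at or under the median GC content, 14.3% (4.98 to 34.6%) of the 21 with ranks 1 to 5000 lay near a piRNA gene, against 44.4% (39.2 to 49.6%) of the 347 others. Among members over the median, 12.1% (7.07 to 20.001%) of 99 did, against 24.1% (19.3 to 29.7%) of 261, and these intervals overlapped. The part of GC content in the pattern was not tested.

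Over all members together the motif was likewise at its background level. It was present within 100 bp of the summit, on either strand, in 76 of the 728 regions (10.4%, 8.42 to 12.9%), against 9.96% of all windows of that width, one at every base of the same part of the chromosome, and in 39 of the 3149 regions of the rest (1.24%) against 1.55% of windows there. In replicate 1 the share in the window was 7.70% and in replicate 2 it was 11.1%. The motif was present in 60 of the 232 regions near piRNA genes (25.9%) and in 16 of the 496 farther away (3.23%). It was found in 0 of the 33 strongest members, for which the Wilson interval reaches 10.4%, so that a share at the level of the windows cannot be told from none. By rank, it was in 2 of the 120 members with ranks 1 to 5000 (1.67%), against 12.2% of the 608 with lower ranks. Replicate 1 gave 6 of 113 (5.31%) against 46 of 562 (8.19%), and replicate 2 gave 5 of 121 (4.13%) against 78 of 629 (12.4%). The share with the motif was thus lower among the strong regions in each replicate list, and the pooled list is made from the same 2 libraries. The counts among strong regions are small, and no intervals were computed for these shares by rank. The part of GC content in this was not tested. The piRNA genes with the exact motif upstream had a summit within 200 bp in 155 of 1112 cases (13.9%, 12.0 to 16.1%), and those without it in 202 of 1704 (11.9%, 10.4 to 13.48%). In replicate 1 the order was reversed, at 9.71% with the motif and 10.5% without, so no difference held across the libraries.

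Summits did not gather at piRNA promoters. In the 100 bp before piRNA 5′ ends there were 85 pairs of a gene and a pooled summit, against 82.0 for summits spread evenly over the window, a ratio of 1.04, and in the 100 bp after them 76 pairs, a ratio of 0.927. Just before the 5′ end the ratio was 0.723 in replicate 1 and 1.16 in replicate 2. Over the steps out to 500 bp on either side the pooled ratio ran from 0.927 to 1.35, with its lowest value in the 100 bp that hold the gene itself.

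**Figure D4:**
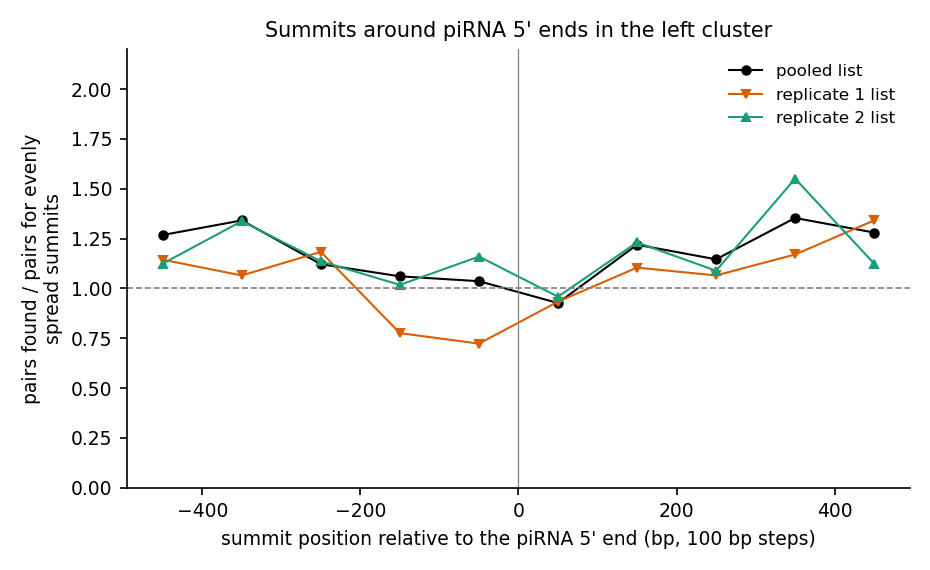
Pairs of a piRNA gene and a summit per 100 bp step around the piRNA 5′ end, divided by the number for summits spread evenly over the window, for the pooled list and each replicate list; negative positions lie upstream. The pooled ratio runs between 0.927 and 1.35, and just upstream of the 5′ end the replicates lie on either side of 1, at 0.723 and 1.16.

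The strongest region near a piRNA gene was chrIV:6140231-6140590, whose summit was 181 bp from 21ur-13565, with a signal of 23.6 in replicate 1, 34.8 in replicate 2 and 58.0 pooled (rank 380). The next, 148 bp from 21ur-7377, had a pooled signal of 39.8 (rank 724) and overlapped the same replicate regions as a stronger member at F36H12.65 and the spliced leader pseudogene sls-2.19 (68.4, rank 298), so the 2 members are not independent. The summit of the weaker one lies inside sls-2.19 and the non-coding gene F36H12.66, and it was counted at a piRNA gene because that class came before other non-coding RNA genes and pseudogenes. At rank 1078 stood the region 5 bp from 21ur-5229 that also lies 46 bp before B0350.t1, and at rank 1080 the region 168 bp from 21ur-9921 that also lies 23 bp before Y17G9A.90. Of the 4 members near piRNA genes in the strongest set, 2 thus lay beside a tRNA or snRNA gene as well, and another inside the pseudogene. The other 6 of the 10 strongest had ranks from 1268 (29.1, 106 bp from 21ur-3329) to 4077 (16.0, 127 bp from 21ur-10115). Between them came 21ur-10599 at rank 2629 with no match in replicate 2, 21ur-6515 at 3756, 21ur-2136 at 3766 and 21ur-6499 at 3775 with no match in replicate 1. All 10 of these summits lay downstream of the piRNA's 5′ end and 2 of the 10 genes had the exact motif; over all pairs within 200 bp, 172 summits lay upstream and 176 downstream.

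Strong regions also stood at places with no small RNA gene. The strongest was in an intron of T22D1.3, with 29.6 in replicate 1, 74.3 in replicate 2 and 105 pooled (rank 164). An intron of drh-1, which encodes a Dicer-related helicase of antiviral RNA interference, followed with 45.9 in replicate 1, 47.6 in replicate 2 and 99.2 pooled (rank 179). At protein-coding genes, summits lay 129 bp from C17H12.2 (84.0 pooled; 51.7 in replicate 1 and 28.8 in replicate 2), 123 bp from hil-7, a linker histone-like gene (63.9 pooled; 41.4 in replicate 1 and 21.7 in replicate 2), and 182 bp from Y17G9B.5 (62.8 pooled; 36.1 in replicate 1 and 26.5 in replicate 2). Farther from a gene were the regions 209 bp from the non-coding gene H34C03.18 (80.9), 294 bp from sqd-1 (63.7) and 473 bp from the major sperm protein gene msp-58 (53.0). A summit inside the non-coding gene C01B10.49 had a pooled signal of 54.4. The summit near hil-7 also lay 188 bp from the non-coding gene C01B10.45 and was counted at that gene's class. In all, 13 of the 33 strongest members stood at an SL RNA, snRNA, snoRNA or tRNA gene, 5 at a protein-coding transcription start, 3 at another non-coding RNA gene, 2 at a piRNA gene and 10 at none of the classes, each member counted in 1 class. Of those 10, 3 had a piRNA gene 223 to 281 bp away. Of the 102 strongest regions in the rest, 12 stood at an snRNA gene, 2 at an SL RNA gene, 6 at a snoRNA gene and 4 at a tRNA gene. A protein-coding transcription start had 24 of the 102, and 41 were at none of the classes.

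Over all members, 89 (12.2%, 10.04 to 14.8%) lay within 200 bp of a protein-coding transcription start, against 9.68% of bases, and in the rest 15.3% against 10.5%. Pseudogenes, a class common in the window, had 3.85% of regions against 4.21% of bases, and in the rest 1.94% against 3.38%. By position, 321 members (44.1%) were intergenic, 233 intronic, 116 in coding exons, 31 in UTR exons and 27 in non-coding genes. In the rest 40.9% of regions were intergenic. None of the 33 strongest members lay in a coding exon, 21 were intergenic and 8 intronic. Coding exons were likewise rare among the 102 strongest of the rest, with 2, while 57 were intergenic and 37 intronic.

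Most regions of the window were not found in both libraries, and the strongest all were. An overlapping region of both replicate lists was found for 234 of the 728 (32.1%, 28.9 to 35.6%), against 1082 of 3149 (34.4%, 32.7 to 36.0%) in the rest, and 89 members had none in either. The share was 100% for the 33 members in the strongest set and 72.4% for those after them down to rank 5000. It was 35.8% from there to rank 15000 and 14.1% for lower ranks. The rest had a like fall with rank, at 100%, 76.6%, 40.3% and 15.0%. Of members near piRNA genes 26.7% were found in both, against 34.7% of those farther away. In the rest the order was opposite, at 41.0% of 61 regions near against 34.2% away. Over the 234 regions found in both, which share the control and the pooled selection, Spearman's rho between replicate ranks was 0.48, against 0.39 in the rest. Some neighbouring members overlapped the same replicate regions and so carry the same replicate ranks. At Y9C9A.111, the members with pooled ranks 78 and 3142 both have ranks 82 and 81. The 234 are therefore not all independent, and the effect of this on rho was not tested. Of the 33 strongest, 28 were in the set of the same size of replicate 1, 28 in that of replicate 2 and 25 in both, and 4 had ranks more than 3-fold apart.

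**Figure D5:**
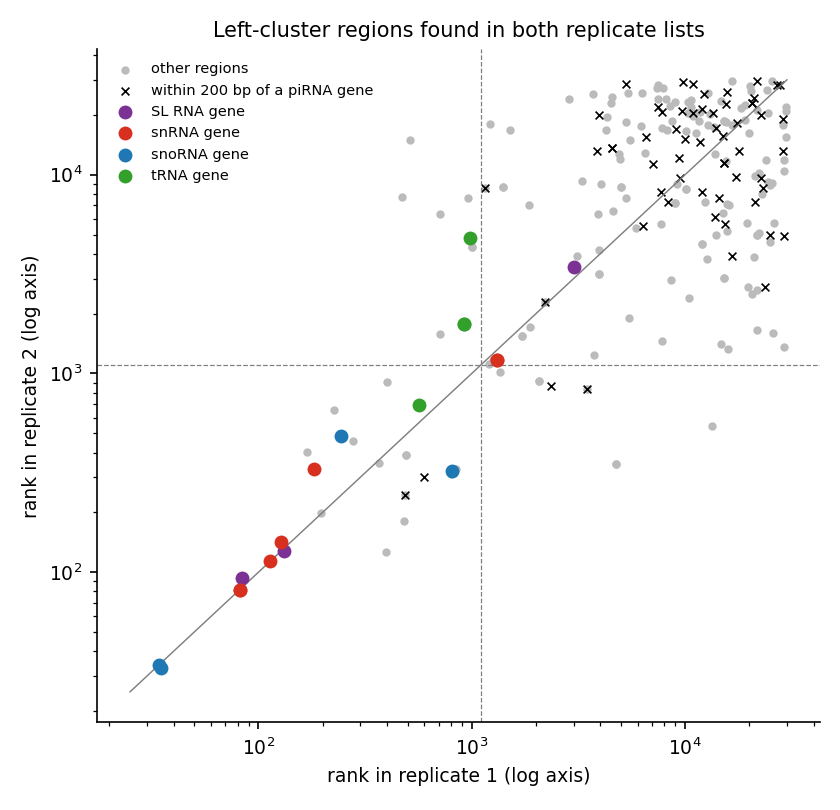
Rank in replicate 1 against rank in replicate 2 on log axes for the 234 members found in both lists, with the identity line and dashed lines at the limit of the strongest set; crosses mark regions within 200 bp of a piRNA gene at none of the 4 coloured classes. The 7 strongest members, all at snoRNA, snRNA or SL RNA genes, hold the lower left corner, near the identity line. Others of these classes lie farther out, such as sls-2.12 at ranks 3001 and 3416. Most crosses lie in the upper right, at weak ranks in both. Neighbouring members that overlap the same replicate regions share a point.

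Genes of the piRNA pathway had regions about as often as other genes. Of 26 listed genes 23 were found in the annotation, and 12 had a candidate region in the gene or at its start, against 49.6% of all 19971 protein-coding genes. In the strongest set 0 of the 23 had a region, against 2.84% of all protein-coding genes, a share too small for a count of 0 among 23 to differ from it. The best was tofu-1, required for piRNA production, at rank 1361 (28.0), followed by snpc-3.4, a SNAPc subunit, at 1997 (22.7), tofu-6, of the piRNA processing complex, at 2886 (18.7) and snpc-4 itself at 3325 (17.4). The gene prg-1 stood at rank 9109 (11.8). Only snpc-3.1 of the list lies in the window, and it had no candidate region.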

How the data were processed

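ChIP-seq against SNPC-4 was deposited for 2 libraries of 1 group, as 8 region lists, 4 per genome build. The authors derived each list from aligned ChIP and control reads, per the labels' sample text, and aligner, caller and depth are not stated in them. The signal of each region is the authors' deposited value over that control and is comparable within a list only. The deposited lists also hold the authors' −log10 of a q-value and the summit offset, of which the offset was used. Members and lists were chosen with earlier results of these data known.

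Regions were ranked by signal, and the strongest set was the first 1099, the length of the thresholded ce10 list. The right cluster ran from 13.5 to 17.2 Mb. Distances ran from the summit to the nearest base of a gene of the RefSeq annotation of WBcel235, with 200 bp as near. Replicate ranks are those of the strongest replicate region with at least 1 bp of overlap. The share of bases near a gene class was counted over every base of the window. Named regions were the 20 strongest, the 10 strongest near piRNA genes, the strongest of each class and the nearest ones at the bounds. No p-values were computed. The distance and overlap functions were tested on simulated regions. Alternatives were single replicate lists, build ce10 with the same bounds, other distances, motif windows, rank limits and references, and piRNA-rich bins. Python 3.11.15, numpy 2.4.6, pandas 2.3.3, scipy 1.17.1 and matplotlib 3.10.9 were used.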

Additional observations from a re-analysis of the deposited data

How the results depend on the processing

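Of 53 comparisons of a result with an alternative, 32 stayed close to the reported value and 21 moved. Close means within the 95% interval of a share, within 1 SD of the replicate lists for a ratio or median, and within 1.5 times for the number of regions. With 1 library left out, the ranges were 675 to 750 regions, 0.961 to 1.06 for the density ratio to the rest of chromosome IV, 27.1 to 33.3% of regions near a piRNA gene, 4.27 to 4.89% among the strongest, a median rank of 14730 to 15671, 0.923 to 0.955 for the signal ratio of regions near and away from piRNA genes, 7.70 to 11.1% with the motif and 10.2 to 13.4% of piRNA genes with a summit nearby. The density ratio thus falls on either side of 1. Shares that depend on a distance moved with it by construction: within 100 and 500 bp, 18.5% and 52.7% of regions lay near a piRNA gene (18.4% and 47.8% of bases did, the second below the interval of the regions), 6.50% and 30.6% of piRNA genes had a summit, and the signal ratio was 0.868 and 0.934. The motif share was 5.49% within 50 bp and 19.4% within 200 bp of the summit. A smaller strongest set held 3.16% of members, and one of 5000 regions held 16.5%. In the piRNA-rich bins alone 37.1% of regions lay near a piRNA gene. Found in both replicates were 17.0% with summits within 100 bp and 7.69% among the first 5000 regions of each list. The 2 settings chosen after seeing the data gave signal ratios of 0.958 at or under the median GC content and 0.871 over it; in each of the alternatives tried the ratio stayed under 1. No paired analysis was possible because the 2 libraries form 1 group. Depth is unknown, and repeated sequences limit what can be placed at multi-copy genes.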
